A study of Mus musculus with 32 samples.

Results

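Lipolysis, the release of fatty acids from stored triglyceride, was followed in brown adipose tissue through 10 genes that encode its lipases and the proteins that control them at the lipid droplet: Pnpla2, Lipe, Mgll, Pnpla3, Abhd5, G0s2, Plin1, Plin5, Cidec and Cideb. The genes were chosen by name, as all probes carrying a member's symbol on the array that are also in the deposited table. They were read by 19 of the 37304 probes of that table, which fall under 10 of 24523 gene names. A 20th probe, for Lipe, was well above background on 0 of 32 arrays and is not in the table, whereas the other 19 were well above background on all 32.

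RNA came from interscapular brown fat of male C57BL6/J mice, 1 array a mouse as far as the labels show, in 4 groups of 8. Total ChREBP KO mice carry a null allele of Mlxipl and lack ChREBPα and ChREBPβ in the whole body. ChREBPβ KO mice were made by CRISPR/Cas9 removal of exon 1b of Mlxipl, also in the whole body, and keep the α isoform. Each KO group was compared with WT littermates of its own line, and both WT groups were set against each other. All 32 mice had been fasted for 24 hours and then refed for 18 hours with food and 20% glucose in the drinking water, so no group shows the fasted state, in which lipolysis is normally most active. Because both deletions are present in every tissue, a change in brown fat may follow from events elsewhere in the body. The labels give no age.

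In a brown adipocyte, triglyceride is cleaved stepwise at the surface of many small droplets, and the fatty acids are burned in mitochondria and activate the uncoupling protein. Noradrenaline starts this through β-adrenergic receptors and protein kinase A, which phosphorylates perilipin 1 and hormone-sensitive lipase, while insulin after a meal restrains it. ChREBP is the glucose-sensing transcription factor that raises lipogenic gene expression in the refed state, and it binds DNA at carbohydrate response elements built from paired E-box-like motifs.

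The brown fat label held on the arrays. All 10 brown adipocyte markers examined, Ucp1 and Cidea among them, were well above background on all 8 arrays of each group. The brightest Mlxipl probe was lower in both KO groups, with changes of -2.48 in total ChREBP KO and -1.50 in ChREBPβ KO on the log2 scale. Its other probes did not fall alike, since 1 changed by -0.77 and -1.14 and the other by 0.14 and -0.08, and the files do not say which of them lie in deleted sequence. Markers of neighbouring tissue differed between lines. The summed signal of 10 skeletal muscle markers ranged from 106000 to 954000 in total-line WT and from 306000 to 789000 in total ChREBP KO, against 13900 to 82400 in β-line WT and 13300 to 63600 in ChREBPβ KO. The summed signal of 10 liver markers ranged from 7720 to 69800, 29800 to 71300, 4730 to 162000 and 3620 to 133000 in the same order. In total ChREBP KO, however, the liver markers Ttr and Fgb were each well above background on only 2 of 8 arrays. The summed signal of 5 white adipose markers had medians of 30300 in total-line WT, 34200 in total ChREBP KO, 23400 in β-line WT and 15200 in ChREBPβ KO. Most of this sum is Retn, with a mean log2 signal of 14.86 in total-line WT, where Agt was next at 9.91. Single white adipose markers did not move together in the β line. Retn and Agt had a lower mean in ChREBPβ KO than in WT, and Lep, Hoxc8 and Hoxc9 a higher one. In bulk tissue, fewer cells of a type and less RNA per cell cannot be told apart.

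Probe identity matters for several of the 10 genes, because probes of 1 gene did not always move alike. For Pnpla3, Mgll and Cideb, whose probes were all called in total ChREBP KO but with changes of different size, the first 30 of the 60 bases of each probe are shown in the letters and order of the scanner files, with mm9 coordinates. In lower case throughout, they mark no motif. The Pnpla3 probes start 3383 bases apart on chromosome 15, the Mgll probes 63656 bases apart on chromosome 6 and the Cideb probes 4208 bases apart on chromosome 14.
Pnpla3 A_55_P2025514, chr15:84016440-84016499: tatccagtggctacaatgggcgacatccca
Pnpla3 A_51_P389265, chr15:84019823-84019882: gcaaactagtggaacagcagaaggattgaa
Mgll A_55_P2063316, chr6:88778292-88778351: aattactaaagaagccaatgtgcactacag
Mgll A_55_P2063312, chr6:88714636-88714695: tatgatgagctggctcatatgttgaagggg
Cideb A_66_P108685, chr14:56372942-56373001: ggtttttactgacgcctacccctaagatcc
Cideb A_55_P2746861, chr14:56377150-56377209: ttatacaaaaaagcaagaacaacagagaag

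Promoters were searched for the letters that ChREBP and PPAR factors are known to read, as the KO groups lack a DNA-binding protein. All 10 genes matched RefSeq (GRCm38.p6), with 14 promoter windows of 250 bases before and 50 after a start. The E-box CACGTG, the same on both strands, was found in 2 of the 14 windows, 1 each of Mgll and Lipe, against 7.15% of 32851 windows of all genes. A carbohydrate response element-like pair of spaced E-box ends, searched on both strands and able to overlap an E-box, was found in 0 of 14, against 0.0457% of all windows. The DR1 direct repeat read by PPAR factors, on both strands, was found in 0 of 14, against 0.381%. A match is a run of letters and not a binding site, and a window without one says nothing of the factor. The 250 bases before the start are printed for the 2 windows with a match, the E-box in capitals. It lies 44 to 39 bases before the Mgll start and 155 to 150 before the Lipe start.
Mgll, GRCm38.p6 chr6:88724162-88724411, plus strand: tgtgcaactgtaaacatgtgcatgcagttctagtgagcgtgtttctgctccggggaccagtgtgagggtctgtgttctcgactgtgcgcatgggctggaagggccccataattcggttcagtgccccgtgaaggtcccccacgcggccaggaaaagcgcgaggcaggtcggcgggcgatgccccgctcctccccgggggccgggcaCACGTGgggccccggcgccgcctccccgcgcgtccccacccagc
Lipe, GRCm38.p6 chr7:25395988-25396237, minus strand: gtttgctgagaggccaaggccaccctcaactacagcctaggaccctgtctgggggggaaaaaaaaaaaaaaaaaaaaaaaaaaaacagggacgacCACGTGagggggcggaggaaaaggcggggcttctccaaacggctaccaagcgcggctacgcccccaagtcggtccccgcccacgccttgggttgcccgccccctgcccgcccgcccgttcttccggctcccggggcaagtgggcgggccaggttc

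Total ChREBP deficiency changed lipases, regulators and droplet proteins in both directions. Read by the brightest probe of each gene, 4 genes were higher in total ChREBP KO than in WT littermates (Abhd5, Plin1, Cidec and Cideb), 3 were lower (Mgll, Pnpla3 and G0s2) and 3 were not called (Pnpla2, Lipe and Plin5). A call here is a Benjamini-Hochberg adjusted p under 0.05 from limma over all probes. Of all genes, 44.1% were called in this comparison, 23.0% higher and 21.1% lower, and the 7 of 10 is to be read against that background. The median change of the 10 was 0.10 on the log2 scale, and their median size of change was 0.35 without regard to sign, against 0.01 and 0.17 over all genes. By probes, 11 of 19 were called, against 43.2% of all probes.

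In ChREBPβ KO only Plin1 of the 10 was called, as higher, where 2.70% of all genes were called, 1.37% higher and 1.33% lower. Over the 19 probes, 2 were called (the brightest of Plin1, and the less bright probe of Pnpla3 as lower), against 2.55% of all probes. The median change of the 10 genes was -0.01, and the median size of change was 0.22, against 0.07 over all genes. A gene that was not called in ChREBPβ KO is not thereby shown to be unaffected, and each is given with its interval.

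**Figure D1:**
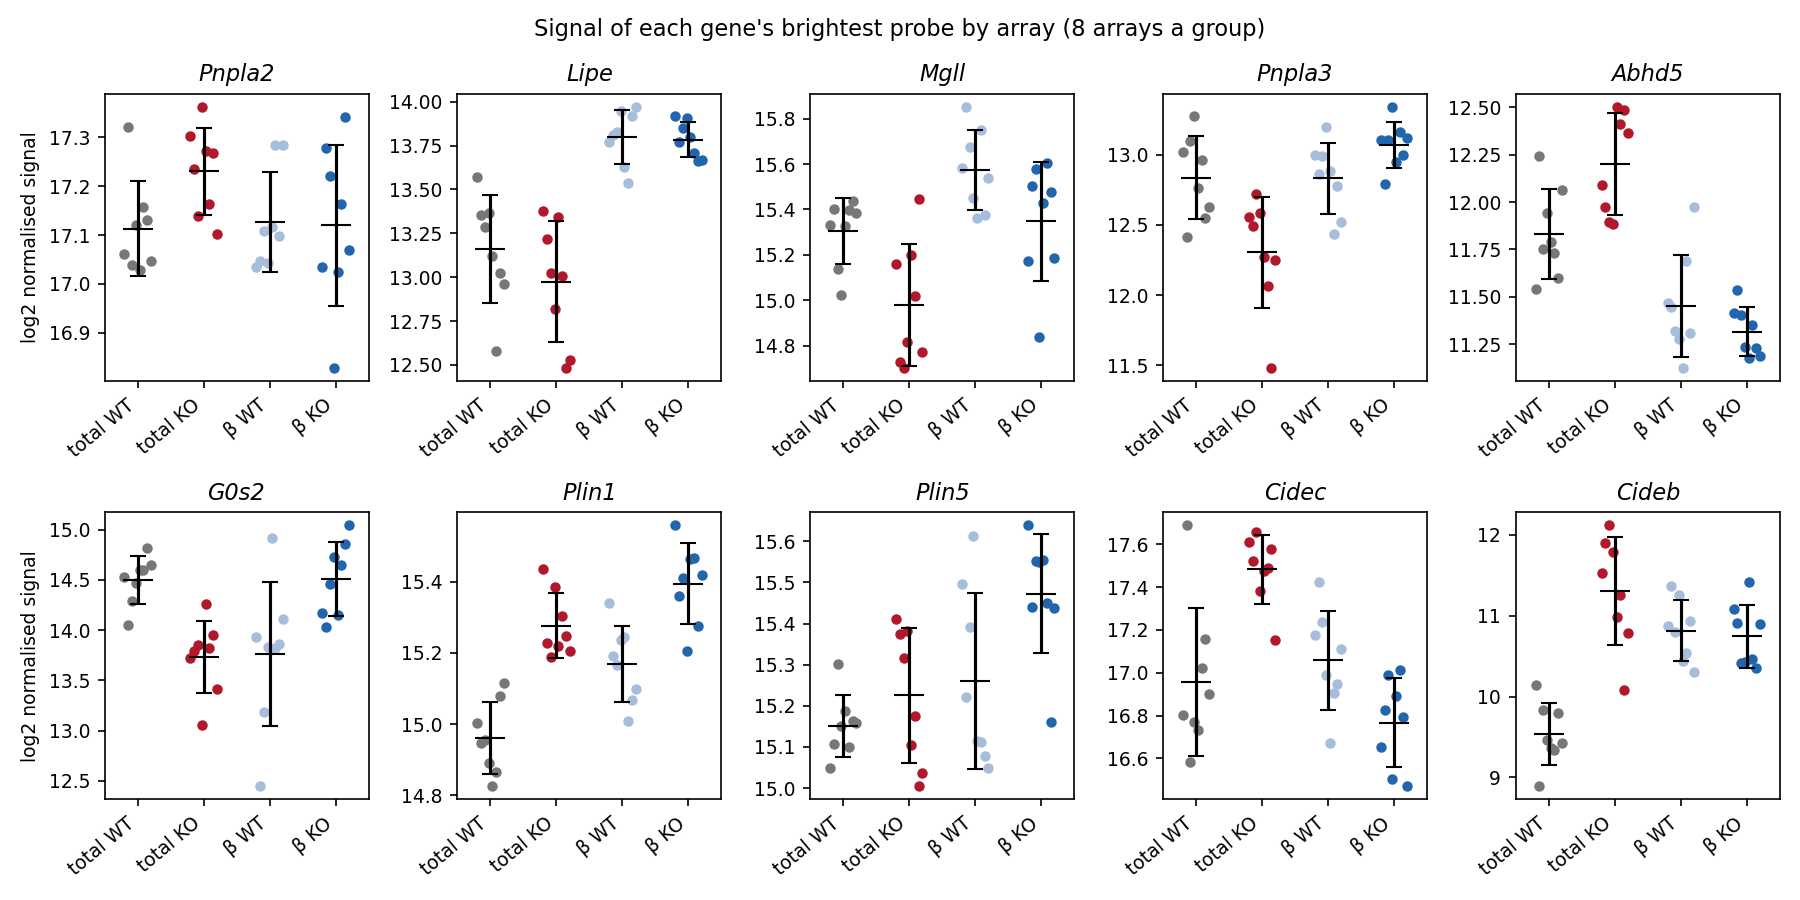
Log2 quantile-normalised signal (vertical axis) of the brightest probe of each of the 10 genes on every array, by group (8 arrays each); bars give mean ± SD. Plin1 is the gene whose total ChREBP KO arrays (15.19 to 15.44) all lie above its WT arrays (14.83 to 15.12), and G0s2 is lower in total ChREBP KO but not in ChREBPβ KO.

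**Figure D2:**
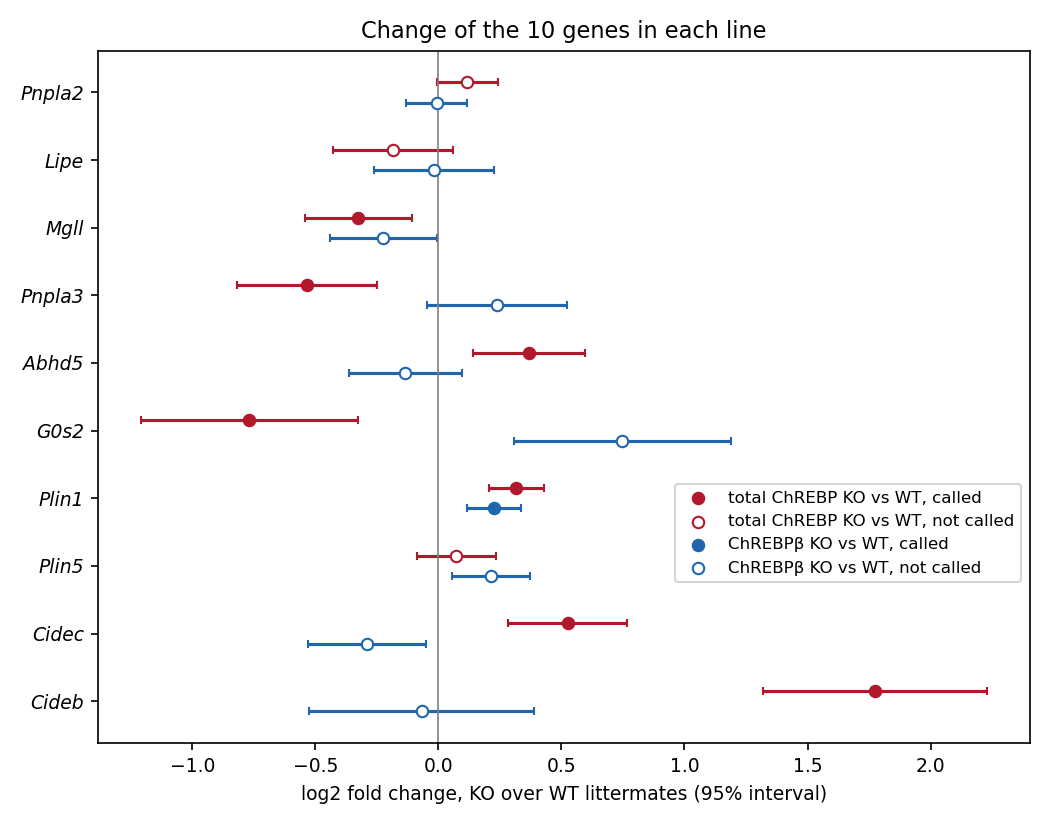
Log2 fold change of each gene in KO over WT littermates (horizontal axis) with its 95% interval, red for total ChREBP KO and blue for ChREBPβ KO; filled points passed an adjusted p of 0.05. Read by the brightest probes, Cideb has the largest change (1.77) in total ChREBP KO, and G0s2 lies on opposite sides of 0 in the 2 lines.

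The lipases come first. Pnpla2 encodes adipose triglyceride lipase, which takes the first fatty acid off triglyceride. Its log2 signal had a lowest, median and highest value of 17.03, 17.09 and 17.32 in total-line WT and of 17.10, 17.25 and 17.36 in total ChREBP KO. In the β line the values were 17.03, 17.10 and 17.28 in WT and 16.83, 17.12 and 17.34 in ChREBPβ KO. The groups overlapped in both lines. The change was 0.12 ± 0.06 (SE; 95% interval -0.01 to 0.24, adjusted p = 0.117) in total ChREBP KO and -0.01 ± 0.06 (-0.13 to 0.12, adjusted p = 0.984) in ChREBPβ KO. The intervals leave room for changes of up to 0.24 in total ChREBP KO. Without total-line WT replicate 2, the highest WT array, the gene was called higher in total ChREBP KO (0.15, adjusted p = 0.0484). It was also called with the deposited table (0.16, adjusted p = 0.0381) and with array weights (0.13, adjusted p = 0.0485).

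Lipe encodes hormone-sensitive lipase, which takes diacylglycerol to monoacylglycerol and is a target of protein kinase A. Its brightest probe read 12.58, 13.20 and 13.57 (lowest, median, highest) in total-line WT and 12.48, 13.02 and 13.38 in total ChREBP KO, then 13.54, 13.82 and 13.97 in β-line WT and 13.66, 13.78 and 13.92 in ChREBPβ KO. Neither KO group stood apart from its WT group, whereas the lowest β-line array lay close to the highest total-line array. The KO effects were -0.18 ± 0.12 (SE; adjusted p = 0.225) and -0.02 ± 0.12 (adjusted p = 0.981). A second probe, A_51_P435363, gave -0.21 ± 0.08 in total ChREBP KO and was called lower (adjusted p = 0.0369), a call lost when any of 9 single arrays was left out. With the probes averaged, Lipe was called lower in total ChREBP KO (-0.20, adjusted p = 0.0337).

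Mgll encodes monoacylglycerol lipase, the enzyme of the last step. The brightest probe read 15.02, 15.36 and 15.44 in total-line WT and 14.70, 14.92 and 15.45 in total ChREBP KO. The KO arrays were mostly lower, with 7 of 8 under the WT mean, but 1 of them lay above every WT array. The gene fell by 0.32 ± 0.11 (SE; adjusted p = 0.0136), a 1.25-fold lower signal, and the other probe fell by 0.56 ± 0.09 (adjusted p = 1.02e-05). In the β line the values were 15.36, 15.56 and 15.85 in WT and 14.84, 15.45 and 15.60 in ChREBPβ KO, and the changes of -0.22 ± 0.11 (adjusted p = 0.341) and -0.20 ± 0.09 (adjusted p = 0.324) did not pass. The 95% interval of the brightest probe in ChREBPβ KO ran from -0.44 to -0.01. Its change was -0.85 in wash batch 1 and -0.03, -0.01 and 0.05 in the other wash batches named in the labels. In wash batch 1 β-line WT replicate 2 is the only array of its group, so the -0.85 rests on that mouse. With slide as a block the ChREBPβ KO change was -0.04 (adjusted p = 0.953). With slide as a block, the call of the brightest probe in total ChREBP KO was lost. Few of the 15 slides held both a KO and a WT array of the same line. The slide fit therefore runs largely through arrays of the other line, and a call lost in it does not decide about the effect.

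Pnpla3 encodes a relative of adipose triglyceride lipase that sits on droplets and is known as a gene induced by feeding. Its probes agreed in the direction of the total ChREBP KO change but not in its size. The brightest, A_55_P2025514, read 12.41, 12.86 and 13.28 in total-line WT and 11.48, 12.38 and 12.72 in total ChREBP KO, and these overlapped. The less bright A_51_P389265 read 12.29, 12.43 and 12.52 in WT and 9.92, 10.24 and 10.52 in KO, which stood well apart. The falls were 0.53 ± 0.14 (SE; adjusted p = 0.00214), 1.45-fold lower, on the brightest probe. On A_51_P389265 the signal fell by 2.18 ± 0.10 (adjusted p = 6.06e-18), 4.54-fold lower.

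The probes of Pnpla3 went in opposite directions in the β line. A_55_P2025514 read 12.43, 12.88 and 13.20 in WT and 12.79, 13.10 and 13.35 in ChREBPβ KO, with a change of 0.24 ± 0.14 (SE; adjusted p = 0.489). A_51_P389265 read 13.29, 13.47 and 13.92 in WT and 12.84, 13.13 and 13.45 in ChREBPβ KO. All 8 ChREBPβ KO arrays lay under the WT mean of that probe, and it was called lower, at -0.41 ± 0.10 (adjusted p = 0.0182). That call was lost when any of 3 single arrays was left out, ChREBPβ KO replicate 4 and β-line WT replicates 2 and 3. It was also lost with slide as a block (-0.34, adjusted p = 0.238) and in a fit of the β line alone. With the 2 probes averaged, Pnpla3 changed by -1.36 in total ChREBP KO.

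**Figure D3:**
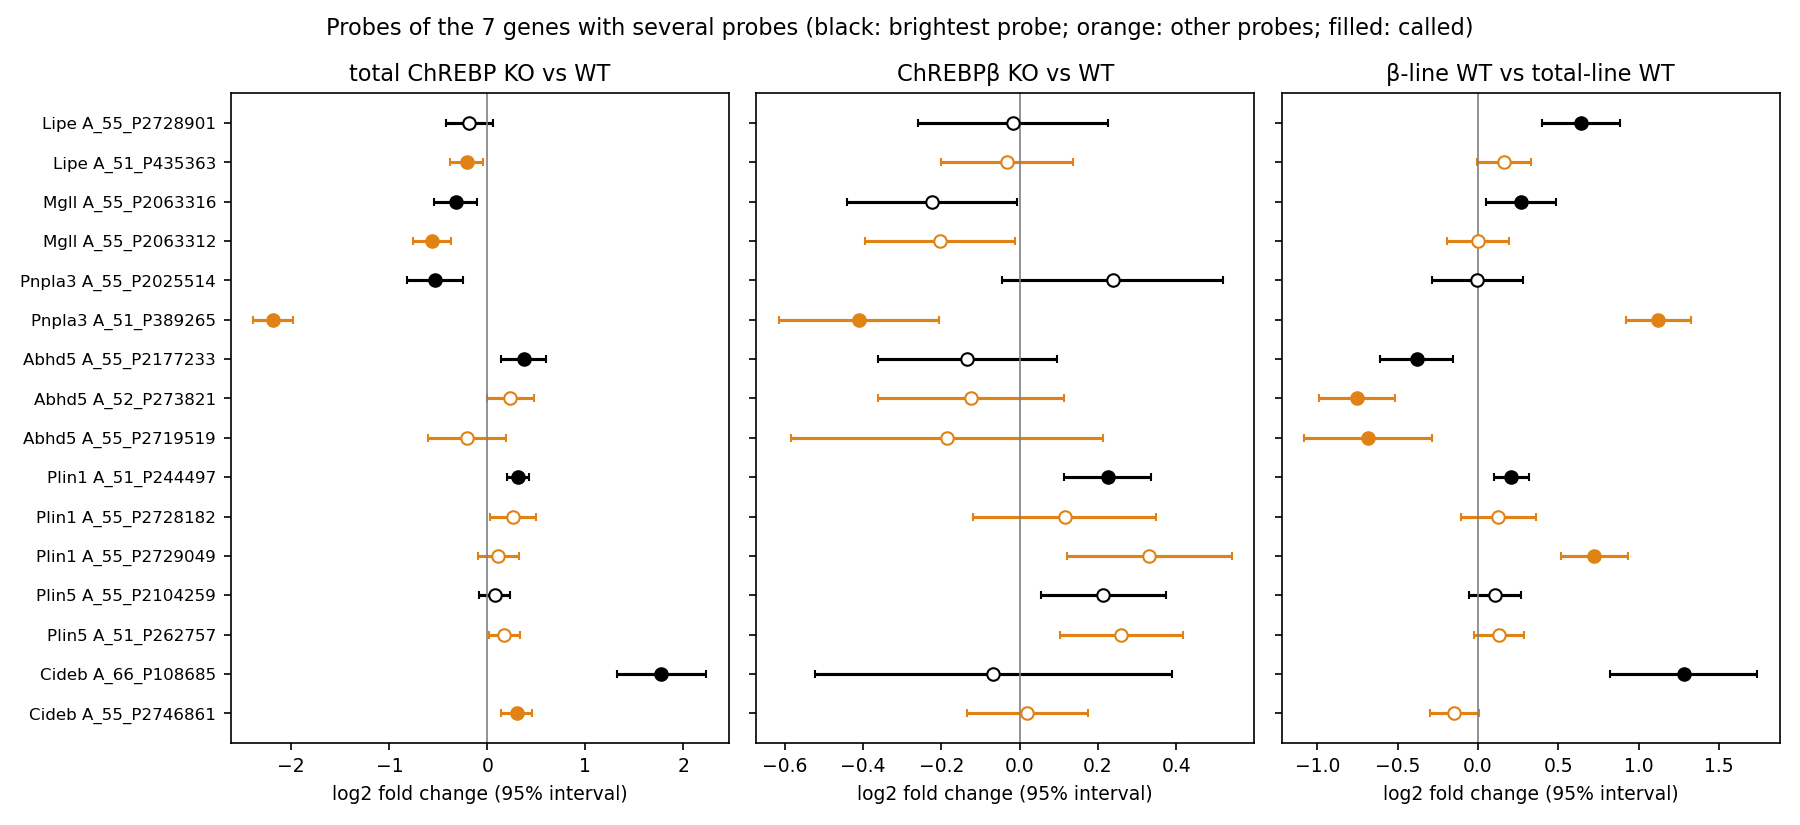
Log2 fold change with its 95% interval (horizontal axes, which differ in scale) for each probe of the 7 genes read by several probes, in 3 comparisons; black marks the brightest probe of a gene, orange the others, and filled points were called. Pnpla3 A_51_P389265 stands at -2.18, -0.41 and 1.12, against -0.53, 0.24 and -0.00 for the brightest Pnpla3 probe.

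Abhd5 and G0s2 set the activity of adipose triglyceride lipase. Abhd5 encodes its coactivator CGI-58, which perilipin 1 holds back until it is phosphorylated. The brightest probe read 11.54, 11.77 and 12.24 in total-line WT and 11.88, 12.23 and 12.50 in total ChREBP KO. All 8 KO arrays lay above the WT mean, although the groups overlapped, and the gene rose by 0.37 ± 0.11 (SE; adjusted p = 0.00806), 1.29-fold. The other probes gave 0.24 ± 0.12 (adjusted p = 0.105) and -0.21 ± 0.20 (adjusted p = 0.425), and with the 3 probes averaged the change was 0.13 (adjusted p = 0.429). The rise of Abhd5 therefore rests on 1 probe of 3. In the β line it read 11.13, 11.38 and 11.98 in WT and 11.18, 11.29 and 11.54 in ChREBPβ KO, a change of -0.13 ± 0.11 (adjusted p = 0.695).

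G0s2 encodes the small protein that binds and inhibits adipose triglyceride lipase and rises with insulin and feeding. It read 14.05, 14.56 and 14.82 in total-line WT and 13.06, 13.81 and 14.26 in total ChREBP KO. All 8 KO arrays lay under the WT mean, and the KO median was under the lowest WT array. The gene fell by 0.77 ± 0.22 (SE; adjusted p = 0.00426), 1.70-fold lower. With slide as a block the change was -0.79 and the call was lost (adjusted p = 0.0555). Within the 4 wash batches named in the labels, each of which holds arrays of all groups, the fall ranged from -0.06 to -1.06. The -0.06 came from wash batch 2, where total ChREBP KO replicate 5 is the only array of its group.

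G0s2 went the other way in the β line without passing the test. It read 12.45, 13.85 and 14.92 in WT and 14.03, 14.55 and 15.05 in ChREBPβ KO. The WT arrays spread more widely than those of the other groups, and all 8 KO arrays lay above the WT mean. The difference was 0.75 ± 0.22 (SE; 95% interval 0.31 to 1.19, adjusted p = 0.0569), and within wash batches it ranged from 0.36 to 2.00. The 2.00 came from wash batch 1, where β-line WT replicate 2 is the only array of its group. The 0.36 came from wash batch 4, where ChREBPβ KO replicate 6 is. The difference passed with the wash batch as a block (0.82, adjusted p = 0.0313) and without β-line WT replicate 5 or ChREBPβ KO replicate 2. It did not pass with slide as a block (0.83, adjusted p = 0.318).

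The perilipins coat the droplet and gate access of the lipases. Plin1 is the main perilipin of adipocytes. Its brightest probe read 14.83, 14.95 and 15.12 in total-line WT and 15.19, 15.24 and 15.44 in total ChREBP KO. These groups did not overlap, which was so for 1 of the 10 genes and for 16.6% of all genes in this comparison. Plin1 rose by 0.32 ± 0.05 (SE; adjusted p = 1.66e-05), 1.25-fold, and by 0.21 to 0.35 within each wash batch. In ChREBPβ KO it read 15.21, 15.41 and 15.56 against 15.01, 15.18 and 15.34 in WT. The β-line groups overlapped, as did those of all 10 genes, while 0.432% of all genes had groups that did not. The gene rose by 0.23 ± 0.05 (adjusted p = 0.0174), 1.17-fold, and by 0.14 to 0.35 within batches.

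The other probes of Plin1 gave 0.26 ± 0.11 (SE; adjusted p = 0.0665) and 0.11 ± 0.10 (adjusted p = 0.408) in total ChREBP KO. In ChREBPβ KO they gave 0.11 ± 0.11 (adjusted p = 0.761) and 0.33 ± 0.10 (adjusted p = 0.0828). All the estimates were above 0, but only the brightest probe was called. The Plin1 call in ChREBPβ KO was lost with either scaling to the 75th percentile, with slide as a block and in a fit of the β line alone, while its estimate stayed between 0.17 and 0.26 under every setting tried. The signal of 5 general adipocyte markers moved beside Plin1 in the total line, where their sum ranged from 519000 to 639000 in WT and from 657000 to 732000 in KO. In the β line the sums were 534000 to 587000 in WT and 542000 to 596000 in KO, and the sums of 4 macrophage markers, 13100 to 24900 in total-line WT and 8850 to 12800 in total ChREBP KO, moved the other way. The part of cell makeup in the Plin1 change was not tested.

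Plin5 encodes the perilipin of oxidative tissues, which binds adipose triglyceride lipase and its coactivator and tethers droplets to mitochondria. It read 15.05, 15.15 and 15.30 in total-line WT and 15.00, 15.25 and 15.41 in total ChREBP KO, then 15.05, 15.17 and 15.61 in β-line WT and 15.16, 15.50 and 15.64 in ChREBPβ KO. All these groups overlapped. The changes were 0.07 ± 0.08 (SE; adjusted p = 0.484) and 0.21 ± 0.08 (95% interval 0.05 to 0.37, adjusted p = 0.163). A probe starting 76 bases away gave 0.17 ± 0.08 (adjusted p = 0.0703) and 0.26 ± 0.08 (adjusted p = 0.0645). That probe passed in ChREBPβ KO without ChREBPβ KO replicate 7, the lowest KO array of the brightest probe, or without β-line WT replicate 4.

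The CIDE proteins enlarge droplets by moving lipid between them. Cidec, which promotes large droplets in white fat, read 16.58, 16.85 and 17.69 in total-line WT and 17.15, 17.51 and 17.66 in total ChREBP KO. All 8 KO arrays lay above the WT mean, but the highest array of both groups was a WT array. Cidec rose by 0.52 ± 0.12 (SE; adjusted p = 0.000493), 1.44-fold. In the β line it read 16.67, 17.05 and 17.42 in WT and 16.47, 16.81 and 17.01 in ChREBPβ KO. All 8 ChREBPβ KO arrays lay under the WT mean, with a change of -0.29 ± 0.12 (95% interval -0.53 to -0.05, adjusted p = 0.231) that did not pass. With slide as a block it was -0.09 (adjusted p = 0.887), and within wash batches it ranged from -0.84 to 0.11. The -0.84 came from wash batch 1, where β-line WT replicate 2 is the only array of its group. The 0.11 came from wash batch 4, where ChREBPβ KO replicate 6 is. After group means were subtracted, Cidec correlated at r = 0.585 with the summed white adipose markers, whose part in the change was not tested. That sum is mostly Retn, so the r describes Retn more than the list.

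Cideb is best known from liver, where it lipidates secreted lipoproteins. By the brightest probe it had the largest change of the 10 genes in total ChREBP KO. The brightest probe read 8.89, 9.44 and 10.15 in total-line WT and 10.08, 11.39 and 12.12 in total ChREBP KO, and only the lowest KO array fell within the WT range. Cideb rose by 1.77 ± 0.22 (SE; adjusted p = 9.13e-08), 3.42-fold, and by 1.05 to 2.28 within wash batches. The other probe, which read 7.18 to 7.53 in WT and 7.41 to 7.88 in KO, rose by 0.30 ± 0.08 (adjusted p = 0.0017). In RefSeq the gene overlaps Nop9 and Ltb4r2, and whether either probe reads those transcripts was not tested.

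In ChREBPβ KO the brightest Cideb probe read 10.36, 10.68 and 11.42, against 10.31, 10.83 and 11.37 in WT. The change was -0.07 ± 0.22 (SE; 95% interval -0.52 to 0.39, adjusted p = 0.956). Liver marker sums were higher in total ChREBP KO (median 50500) than in total-line WT (median 11800), but the markers did not move together. The mean log2 signal of Cyp2e1 was 13.00 in total-line WT and 15.49 in total ChREBP KO, whereas 7 of the 10 markers had a lower mean in total ChREBP KO, Alb at 8.72 and 6.84 among them. With the mean levels of the liver and muscle markers as terms of the fit, Cideb rose by 1.78 in total ChREBP KO (adjusted p = 1.33e-07). In that fit 7 genes were called in total ChREBP KO, as without it.

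The difference between the KO effects was tested directly, as the ChREBPβ KO effect minus the total ChREBP KO effect. It passed for 5 of the 10 genes, where 25.2% of all genes passed, 12.2% higher and 13.1% lower. By probes, 7 of 19 passed, against 24.1% of all probes. G0s2 (1.52 ± 0.31, SE; adjusted p = 0.000366) and Pnpla3 (0.77 ± 0.20, adjusted p = 0.00389) were higher in this difference. Cideb (-1.84 ± 0.32, adjusted p = 4.86e-05), Cidec (-0.81 ± 0.17, adjusted p = 0.000437) and Abhd5 (-0.50 ± 0.16, adjusted p = 0.0194) were lower. The Abhd5 difference was lost with slide as a block (-0.39, adjusted p = 0.0543), with averaged probes (-0.28, adjusted p = 0.285) and with the processed signal scaled to the 75th percentile. G0s2 and Cidec were the called genes with the ChREBPβ KO interval wholly on the other side of 0 from the total ChREBP KO change. For Cidec the ChREBPβ KO change was smaller in size with slide as a block (-0.09, adjusted p = 0.887). For Plin1 the difference was -0.09 ± 0.08 (95% interval -0.25 to 0.07), which includes no difference and a rise smaller by up to that bound in ChREBPβ KO. For Mgll it was 0.10 ± 0.15 (-0.21 to 0.41) on the brightest probe, while the other probe was called, at 0.36 ± 0.13 (adjusted p = 0.046), a call lost in 23 of 47 settings.

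Read by the brightest probes, the WT groups of the lines differed in 6 of the 10 genes. This comparison shares its arrays with both KO comparisons. It also coincides with line, litter and breeding, which cannot be told apart. In β-line WT, 4 genes were higher than in total-line WT (Lipe, Mgll, Plin1 and Cideb) and 2 were lower (Abhd5 and G0s2), where 38.9% of all genes were called, 24.8% higher and 14.1% lower. By probes, 10 of 19 were called, against 39.2%. The WT groups did not overlap for 1 of the 10 genes, Cideb, and for 9.46% of all genes.

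Cideb was higher in β-line WT by 1.28 ± 0.22 (SE; adjusted p = 3.15e-05), Lipe by 0.64 ± 0.12 (adjusted p = 6.98e-05), Mgll by 0.27 ± 0.11 (adjusted p = 0.0452) and Plin1 by 0.21 ± 0.05 (adjusted p = 0.00273). The Mgll call was lost in 15 of 48 settings, among them wash batch as a block (0.21, adjusted p = 0.0631), slide as a block (adjusted p = 0.0661), averaged probes (0.13, adjusted p = 0.286) and the loss of any of 9 single arrays (total-line WT replicates 1, 3, 4 and 5, and β-line WT replicates 1, 2, 3, 6 and 8). The other Mgll probe was at -0.00. The other Cideb probe was at -0.15 (adjusted p = 0.126), opposite in sign to the brightest, and the other Lipe probe at 0.16 (adjusted p = 0.118). Neither was called. G0s2 was lower, at -0.74 ± 0.22 (adjusted p = 0.00708), and so was Abhd5, at -0.38 ± 0.11 (adjusted p = 0.00729). The Pnpla3 probe A_51_P389265 was higher by 1.12 ± 0.10 (adjusted p = 3.2e-10), with WT groups that did not overlap, although the brightest Pnpla3 probe gave -0.00 ± 0.14. All 3 Abhd5 probes were called lower in β-line WT, with changes of -0.75 to -0.38. The order of group means therefore differed by gene. For G0s2 ChREBPβ KO and total-line WT were highest and total ChREBP KO lowest. For Lipe both β-line groups were above both total-line groups. On the brightest Cideb probe total ChREBP KO was highest and total-line WT lowest, apart from both β-line groups but not from total ChREBP KO. On the other Cideb probe both total-line groups were above both β-line groups, so the place of total-line WT depends on the probe.

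The muscle marker sums given above separate the lines without overlap. With the mean liver and muscle marker levels as terms, 1 of the 10 genes was still called between the WT groups, Abhd5 at -0.58 (adjusted p = 0.0422). Because muscle signal goes with line, such a fit cannot tell muscle RNA from line, and a call lost in it decides neither. In that fit Lipe was at 0.38 (adjusted p = 0.23), G0s2 at -0.29 (adjusted p = 0.675), Plin1 at 0.26 (adjusted p = 0.0642), Mgll at 0.42 (adjusted p = 0.119) and Cideb at 0.92 (adjusted p = 0.114). The directions were those of the fit without these terms for all 6 genes, and the estimates of Mgll, Plin1 and Abhd5 were larger in size with them. Across the 32 arrays, which share lines, the muscle list correlated at r = -0.83 with Lipe, 0.665 with Abhd5, -0.443 with Mgll, -0.402 with Plin1, -0.232 with Cideb and -0.00143 with G0s2. After group means were subtracted, r lay between -0.343 (Abhd5) and 0.197 (Mgll) for these 6 genes. The part of muscle RNA in the WT differences was not tested.

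**Figure D4:**
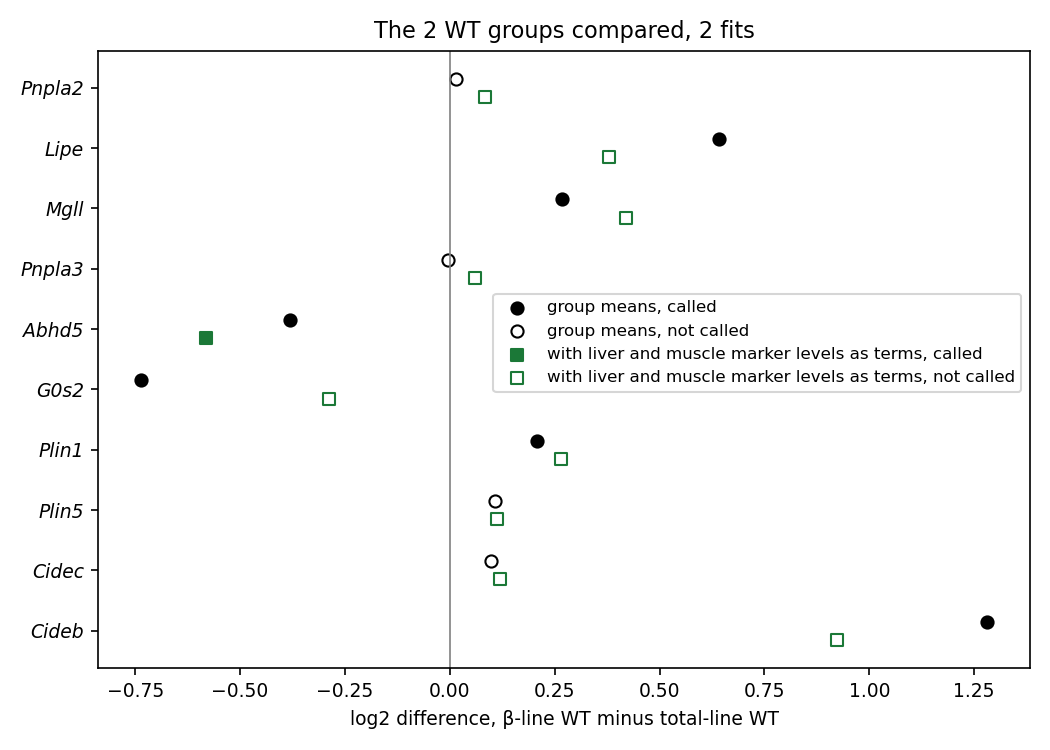
Log2 difference of β-line WT minus total-line WT (horizontal axis) for the 10 genes, with group means alone (black circles) and with liver and muscle marker levels added as terms (green squares); filled points were called. With group means alone 6 genes were called and with the added terms 1, Abhd5. Muscle marker sums separate the lines, so the second fit cannot tell muscle RNA from line.

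Other genes of the droplet and of lipid hydrolysis were set beside the 10. Of 16, 8 were higher in total ChREBP KO, 2 were lower and 6 were not called, with a median change of 0.20 against 0.01 over all genes, of which 23.0% were higher and 21.1% lower. Plin2, the perilipin of growing droplets, fell by 1.43 ± 0.07 (SE; adjusted p = 1.84e-17), while Plin4, a perilipin of white adipocytes, rose by 0.76 ± 0.09 (adjusted p = 3.34e-08). The carboxylesterases Ces1f and Ces1d, which also hydrolyse triglyceride, rose by 1.07 ± 0.14 (adjusted p = 2.9e-07) and 0.83 ± 0.08 (adjusted p = 3.85e-10). In ChREBPβ KO 1 of the 16, Plin4, was called, at 0.38 ± 0.09 (adjusted p = 0.0172), where 2.70% of all genes were. The perilipins thus changed unequally in total ChREBP KO, with Plin1, Plin3 and Plin4 higher, Plin2 lower and Plin5 not called. Within the list, Fitm1, a droplet protein of muscle, was lower in β-line WT than in total-line WT, at -4.00 ± 0.33 (adjusted p = 6.85e-11), as the muscle markers were.

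Of 14 genes for the hormone signals that start or stop lipolysis, 5 were higher in total ChREBP KO, 2 were lower and 7 were not called, a share close to the 44.1% of all genes called, with a median change of 0.17. Pde3b, the phosphodiesterase through which insulin lowers cAMP, rose by 0.65 ± 0.08 (SE; adjusted p = 4.72e-08), and Adcy3, an adenylyl cyclase that makes cAMP, rose by 0.56 ± 0.13 (adjusted p = 0.000625). The antilipolytic receptors Hcar1, for lactate, and Adora1, for adenosine, fell by 0.91 ± 0.15 (adjusted p = 1.28e-05) and 0.65 ± 0.10 (adjusted p = 2.62e-06). Members of the list that raise cAMP and members that lower it thus moved in both directions. In ChREBPβ KO 1 of the 14 was called, Adrb3, the β-adrenergic receptor of adipocytes, at 0.55 ± 0.15 (adjusted p = 0.0465), again where 2.70% of all genes were. That call was lost when any of 23 of the 32 arrays was left out in turn. Both Adrb3 probes were called higher, and the paper lists Adrb3 as up-regulated in brown fat of ChREBPβ-deficient mice. That list was drawn from these same arrays and is no independent support. It names neither Plin1 nor Plin4, which were also called here in ChREBPβ KO. In total ChREBP KO, Adrb3 was at -0.03 ± 0.15 (adjusted p = 0.883).

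**Figure D5:**
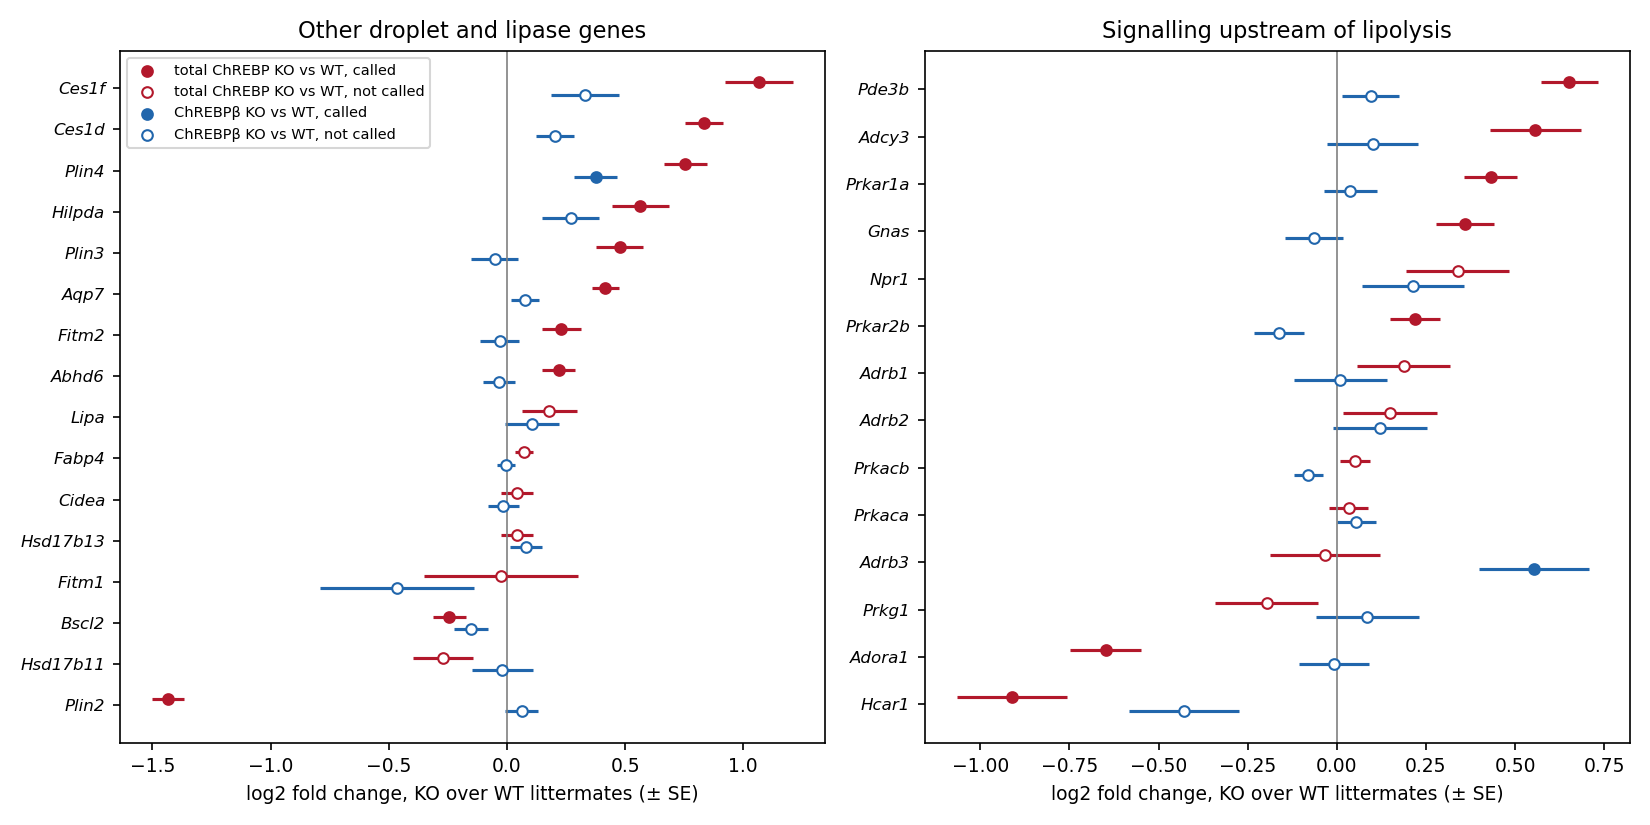
Log2 fold change in KO over WT littermates (horizontal axes, ± SE) of 16 droplet and lipase genes (left) and 14 signalling genes (right), red for total ChREBP KO and blue for ChREBPβ KO; filled points were called. Plin2 (-1.43) and Hcar1 (-0.91) are the lowest in total ChREBP KO, and Plin4 and Adrb3 are the only filled blue points.

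Likeness of pattern was described by Pearson's r of each gene with 15341 others over 32 arrays, which share groups and batches, so no p is given. For 9 of the 10 genes the most alike are given: Adh1 for Cideb (0.911), Cln3 for Cidec (0.900), Zdhhc4 for Mgll (0.897) and Unk for Lipe (0.889). Then came Mnat1 for Pnpla3 (0.875), NEAT1 for Plin1 (0.873), Ttc30b for Plin5 (0.804), Dusp6 for G0s2 (0.757) and Sub1 for Pnpla2 (0.755). With group means subtracted, the most alike gene was again Cln3 for Cidec (0.853), and another for each of the other 8. For Plin5 that gene was Dbp (0.834), a clock output gene. Among the 10 genes themselves, the highest r was that of Cideb and Plin1 (0.657, and 0.322 after group means were subtracted) and the lowest that of Abhd5 and Pnpla3 (-0.79, and -0.63 after group means were subtracted).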

How the data were processed

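Gene expression was read on 32 one-colour Agilent mouse arrays (Feature Extraction 10.10.1.1 per the file headers). The deposited scanner files hold spot intensity, of which the median pixel intensity was used. The deposited table holds log2 values for which the authors kept non-control spots well above background on 26 of 32 arrays or on 6 arrays of 1 group, quantile-normalised them and took the median of repeated probes. Here the same filter kept 39985 of 59305 spots, 37306 probes and 24523 gene names. Values were quantile-normalised on the linear scale, with no background subtraction, and then log2-transformed. The mean absolute difference from the deposited log2 values was 0.0113. Signals are relative, so levels of different probes were not set against each other, except to rank the probes of a gene by brightness. On each array 64.4 to 71.1% of spots were well above background and 0 were saturated. The number of arrays limits the precision.

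Group means were fitted with limma 3.58.1 in R 4.3.3 (lmFit, eBayes), and p-values were adjusted by Benjamini-Hochberg over 37306 probes. A gene was read by its brightest kept probe, the one with the highest mean log2 signal over the 32 arrays. That ranking includes the KO arrays and can differ within a line, as for Pnpla3. Values are differences of log2 signal with the standard error, n = 8 a group. Groups came from the genotype and strain labels. The labels name individual arrays and no litters, so p-values measure the spread between these arrays. Genes named outside the 10 were, per list, up to 4 called genes with the largest change in a KO comparison, and Fitm1, which was chosen after its value was seen, as were Plin3 and Adrb3 in total ChREBP KO. Likeness was the highest Pearson's r over 32 arrays, and that of Abhd5 is not reported here. The 10 genes and the lists were chosen with earlier results of these data known. The fit was tested on simulated data. Alternatives covered scaling, background correction, filter, the deposited table, batch and slide blocks, weights, marker covariates, probe averaging, the threshold and leaving out each array. Few slides hold KO and WT arrays of the same line, so a result lost with slide as a block decides little. Some groups have only a single array in a wash batch, and the values within such batches are not replicated.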

Additional observations from a re-analysis of the deposited data

Results flagged for a closer look

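The highest or lowest array stood apart from its group of 8 by Dixon's ratio, the gap to the nearest array over the range of the group, past its 95% critical value, in 3 of 76 combinations of probe and group. Chance alone gives about 1 in 20. Pnpla2 in total-line WT had a ratio of 0.56, with replicate 2 at 17.32 and the next array at 17.16. ChREBPβ KO replicate 7 was the lowest array for a less bright Plin1 probe, A_55_P2729049 (ratio 0.56, at 11.61 against 11.98), and for the brightest Plin5 probe (ratio 0.578, at 15.16 against 15.44).

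The KO effects of the lines differed by a test of the difference itself for 5 genes. ChREBPβ KO minus total ChREBP KO was 0.77 for Pnpla3, -0.50 for Abhd5, 1.52 for G0s2, -0.81 for Cidec and -1.84 for Cideb on the log2 scale.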

How the results depend on the processing

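In total ChREBP KO, 7 of the 10 genes were called, and 5 to 8 over 16 alternatives and 7 to 8 with each array left out. The difference between KO effects was called for 5 genes, then for 4 to 5 and for 5. In ChREBPβ KO the count of 1 became 0 with the processed or the median signal scaled to the 75th percentile, with slide as a fixed block, with the groups of the line alone and at an adjusted p under 0.01. It became 2 with a filter on all arrays, with wash batch or replicate number as a block, with array weights and with liver and muscle covariates, and was 1 to 2 with each array left out. Between WT groups the count of 6 became 1 with those covariates, in a fit that cannot tell muscle RNA from line. It was 5 to 6 with each array left out.

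Of 16 droplet genes, 10 were called in total ChREBP KO, then 8 to 10 and 9 to 11. In ChREBPβ KO the count of 1 became 0 with the processed signal, with slide as a block and at an adjusted p under 0.01, and 2 with the mean of the probes of a gene. With each array left out it was 1. Of 14 signalling genes, 7 were called in total ChREBP KO, then 6 to 8 and 7 to 8. In ChREBPβ KO the count of 1 became 0 with either 75th percentile scaling, the deposited table, no filter, slide as a block, the groups of the line alone, a trended robust fit and an adjusted p under 0.01, and was 0 to 1 with each array left out. The causes were not tested. The 1 reversal was the brightest Pnpla3 probe between WT groups, which was at 0.56 when the probes were averaged, since the other probe then weighs in.

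Replicate numbers were not taken to pair the arrays, since not every same-numbered pair correlated over 0.1. Same-numbered deviations correlated at -0.30 to 0.53, 16 of 48 pairs were over 0.1 (6 of 8 between β-line WT and ChREBPβ KO, and 0 of 8 between total-line WT and total ChREBP KO), and 3 of 32 arrays correlated best with their own number. With the replicate block, G0s2 was called in ChREBPβ KO (0.75, adjusted p = 0.0312).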
